A study of Rattus norvegicus with 24 samples.

Results

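The genes described here belong to oxidative phosphorylation, the process by which mitochondria turn the energy of nutrients into ATP. Members were chosen by gene name: probes named for subunits of the respiratory complexes, ATP synthase, cytochrome c, the mitochondrial carriers or the uncoupling proteins, apart from probes that the study's tables of MHC and NKC genes list. Of 8453 probes with 7263 gene names on the array, 2 met the rule, *Atp5b* and *Cycs*, with 1 probe each. No probe named for a subunit of complexes I to IV, a carrier or an uncoupling protein was found, and the values below are those of these 2 genes rather than of the respiratory chain. The array was built around the MHC and NKC, 2 gene regions of the immune system, and its other genes served mainly for normalization.

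In the respiratory chain, electrons pass through membrane complexes that pump protons out of the mitochondrial matrix. Cytochrome c, encoded by *Cycs*, is the small soluble protein that carries electrons from complex III to complex IV, and its release into the cytosol starts the assembly of the apoptosome during cell death. ATP synthase lets the protons flow back and makes ATP, and *Atp5b* (now *Atp5f1b*) encodes its catalytic beta subunit. In skin, this machinery serves keratinocytes, fibroblasts and any infiltrating immune cells alike.

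The skin came from the paws of 12 male BN rats aged 15 weeks. From each rat, 1 explant was cultured for 3 days with syngeneic BN lymphocytes and 1 with allogeneic PVG lymphocytes. Both kinds of lymphocytes came from a 7-day mixed lymphocyte reaction (MLR) with irradiated BN cells. The study reports that PVG cells proliferated specifically in it, unlike BN cells, and calls the allogeneic lymphocytes pre-stimulated. The allogeneic culture models in a dish how donor lymphocytes attack host tissue (GVHR, graft-versus-host reaction), and it holds no blood supply and no lymphoid organs of the host. The RNA of both explants of a rat was hybridised together on 2 two-color arrays with exchanged dyes (Cy3 and Cy5), which gave 24 arrays on 3 slides. The explants are bulk tissue that can hold added lymphocytes, so that fewer cells of a type and less RNA per cell cannot be told apart. Per the study, lymphocytes that had not entered or attached to the skin were washed off before freezing. It also reports that histology rarely showed infiltrating ones.

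Each probe is a synthetic oligonucleotide of 60 bases, and the sequences are shown since the values of both genes rest on them. In the file of the array design, the *Atp5b* probe lies at chr7:1378451-1378510 of build rn3 on the plus strand, and the *Cycs* probe at chr4:79102147-79102206 on the minus strand. The first 30 bases of the *Cycs* probe, at chr4:79102177-79102206, are given. The exon annotation of that build was not used here. Rodent genomes hold processed copies of *Cycs*, so that related transcripts could add to its signal.
Atp5b: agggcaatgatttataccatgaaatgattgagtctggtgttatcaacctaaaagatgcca
Cycs: aaatcttctcttatctaagactaagctgta

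*Atp5b* and *Cycs* are nuclear genes, and factors such as NRF1 and GABP are known to drive many genes of their class. Both factors are also on the array and are described further down. Short stretches before each gene's start are shown, from RefSeq on build GRCr8, with the GABP motif (*Atp5b*) or NRF1 motif (*Cycs*) in capitals. Both stretches also hold the sequence CCAAT, which is left in lower case. *Atp5b* spans chr7:1100058-1106461 there, and its stretch is chr7:1099974-1100039 on the plus strand. *Cycs* spans chr4:80982667-80984767, and its stretch is chr4:80984888-80984955 on the minus strand.
Atp5b: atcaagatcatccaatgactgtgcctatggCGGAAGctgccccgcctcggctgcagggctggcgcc
Cycs: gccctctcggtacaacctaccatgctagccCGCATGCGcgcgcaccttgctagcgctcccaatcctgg

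In windows from 250 bases before to 50 bases after the start, 4 motifs were searched on both strands. The NRF1 core CGCATGCG was found once for *Cycs*, beginning 158 bases before the start, and not for *Atp5b*, and 1.66% of 33469 promoter windows hold it. The GABP core CGGAAG was found once for *Atp5b*, 54 bases before the start, and not for *Cycs*, with a share of 16.6% over all windows. The CAAT box CCAAT occurred 3 times for *Atp5b* and 2 times for *Cycs* (37.5% of windows), and the GC box GGGCGG occurred once, for *Atp5b* (33.1%). No match overlapped one of another motif.

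Both probes were bright. Each spot of both genes passed the test for signal over background in Cy3 and in Cy5 on the 24 arrays, and no spot was saturated or marked as an outlier. Outside rat 8, the *Atp5b* spot had intensities of 5312 to 11007 in Cy3 and 11546 to 22929 in Cy5 for the samples labelled syngeneic. The samples labelled allogeneic gave 6201 to 9585 in Cy3 and 12858 to 49881 in Cy5. The highest values of the Cy3 syngeneic and Cy5 allogeneic channels were both from array 1 of rat 10, which is far brighter than all others. The groups overlapped in both dyes.

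The first *Cycs* spot had intensities of 2280 to 4471 in Cy3 and 4434 to 8862 in Cy5 for the samples labelled syngeneic outside rat 8. In rat 8 these were 271 in Cy3 and 653 in Cy5, below every other rat in both dyes. The second *Cycs* spot gave 329 and 731 in the same channels, against 2892 to 5102 and 5355 to 10100 in the other rats. The sample labelled allogeneic of rat 8 was within the range of the other rats, at 5345 in Cy5 and 2792 in Cy3 on the first spot. The low value was thus seen in 1 RNA sample, in both dyes and on both spots. In the same RNA sample, *Atp5b* was bright, with 10354 in Cy3 and 25984 in Cy5, the latter above the 11 other rats.

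**Figure D1:**
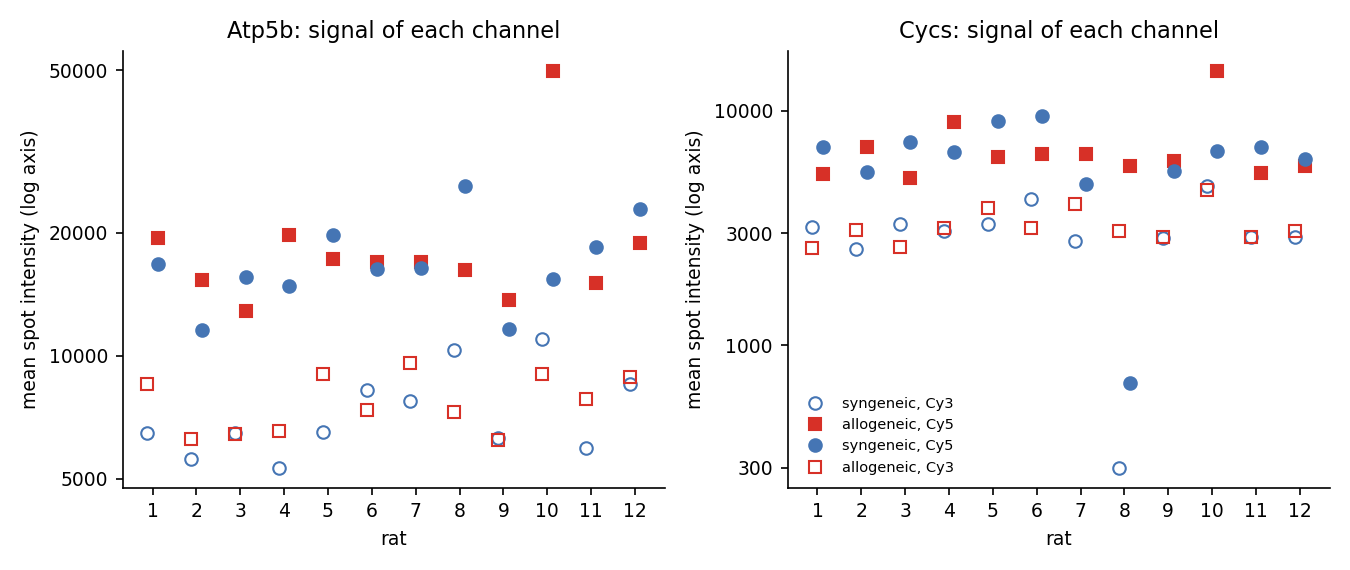
Mean spot intensity on a log axis against the rat, for *Atp5b* (left) and *Cycs* (right, mean of 2 spots), with circles for samples labelled syngeneic and squares for samples labelled allogeneic, open in Cy3 and filled in Cy5. The *Cycs* circles of rat 8 lie below all others, while its squares lie among those of the other rats.

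Values from here on are log2 ratios of the sample labelled allogeneic over the sample labelled syngeneic of the same rat, after background correction and loess normalization, as the mean of the rat's 2 arrays. The direction follows the dyes in the labels, which the methods also give for 1 orientation. It is opposite to the direction of the study's own tables. The study's quantitative PCR, run without arrays on some of the same sample pairs, also found *Aif1* higher in allogeneic explants. By the labels used here, *Aif1* had a log2 ratio of -1.27. Each sign below would turn if the labels were exchanged, and whether they were was not tested.

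The log2 ratio of *Atp5b* was 0.21, 0.18, -0.14 and 0.15 in rats 1 to 4, 0.09, 0.01, 0.13 and -0.30 in rats 5 to 8, and 0.13, 0.09, 0.20 and -0.04 in rats 9 to 12. It was positive in 9 of 12 rats and lowest in rat 8, followed by rat 3. Its mean was 0.06 ± 0.15 (SD, n = 12), a ratio of 1.04, with a 95% interval of -0.03 to 0.15. In the limma fit over all probes with Benjamini-Hochberg adjustment, the difference did not pass the threshold (adjusted p = 0.395), and with arrays centred on their median in place of loess the mean was -0.02.

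The log2 ratio of *Cycs* was -0.45, 0.17, -0.40 and 0.00 in rats 1 to 4, -0.21, -0.42, 0.35 and 3.02 in rats 5 to 8, and 0.03, -0.06, -0.07 and 0.02 in rats 9 to 12. It was positive in 6 rats and negative in 6, and only rat 8 lay beyond 0.45 in size. Its mean was 0.17 ± 0.93 (SD, n = 12), a ratio of 1.12, with a 95% interval of -0.38 to 0.71 (adjusted p = 0.711, limma). Leaving out rat 8 turned the mean to -0.09 ± 0.25 (SD, n = 11), with an interval of -0.25 to 0.06 and an adjusted p of 0.379 by limma.

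**Figure D2:**
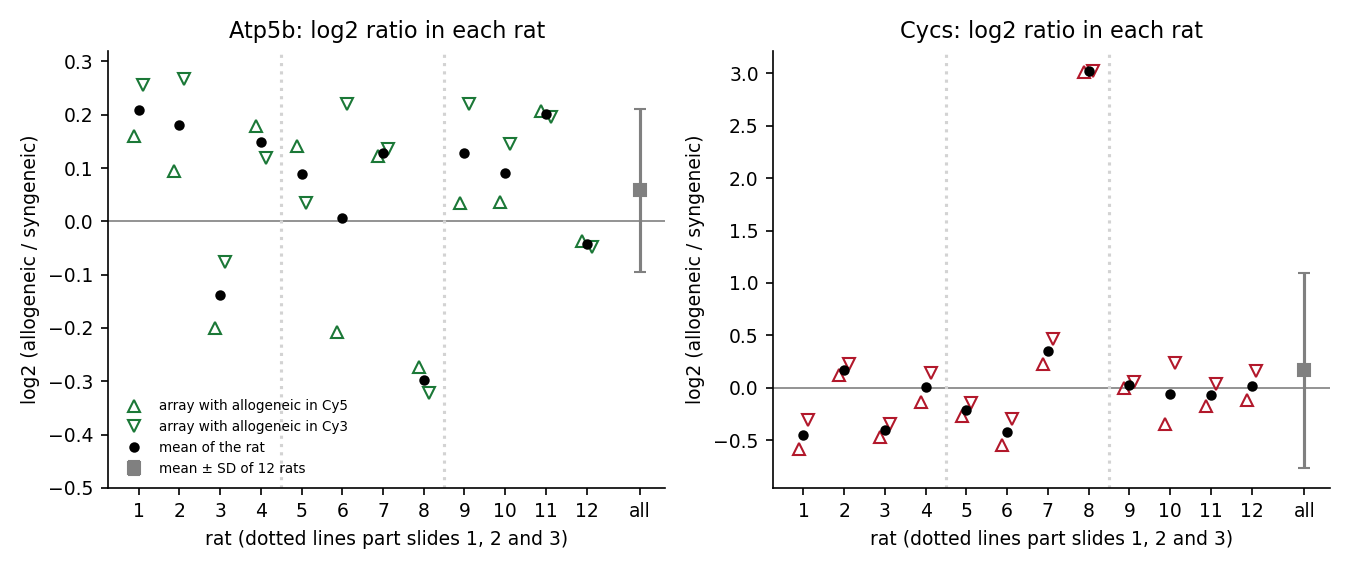
Log2 ratio of the sample labelled allogeneic over the sample labelled syngeneic against the rat, for *Atp5b* (left) and *Cycs* (right, on a wider axis), with triangles for the 2 arrays of a rat, black points for their mean and a grey square with bars for the mean ± SD of 12 rats. *Cycs* lay at 3.02 in rat 8 and between -0.45 and 0.35 in the other rats, whereas *Atp5b* stayed between -0.30 and 0.21.

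Neither of the 2 probes was thus called (0 of 2), and neither passed an unadjusted p of 0.05 in limma, against 17.3% of all probes called and 30.2% at the unadjusted threshold. Over all probes 8.78% were called higher and 8.48% lower, and 6.19% had the same sign in all 12 rats, which neither member had. The median of the 2 mean log2 ratios was 0.11, and that of all probes 0.01. A one-sample test of the rat means without moderation and the exact signed-rank test also called 0 of 2. Without rat 8, 24.7% of all probes passed and still neither member. *Atp5b* came near the threshold there, with a mean of 0.09 ± 0.11 (SD, n = 11), an interval of 0.02 to 0.16 and an adjusted p of 0.0544 by limma, and was positive in 9 of 11 rats.

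**Figure D3:**
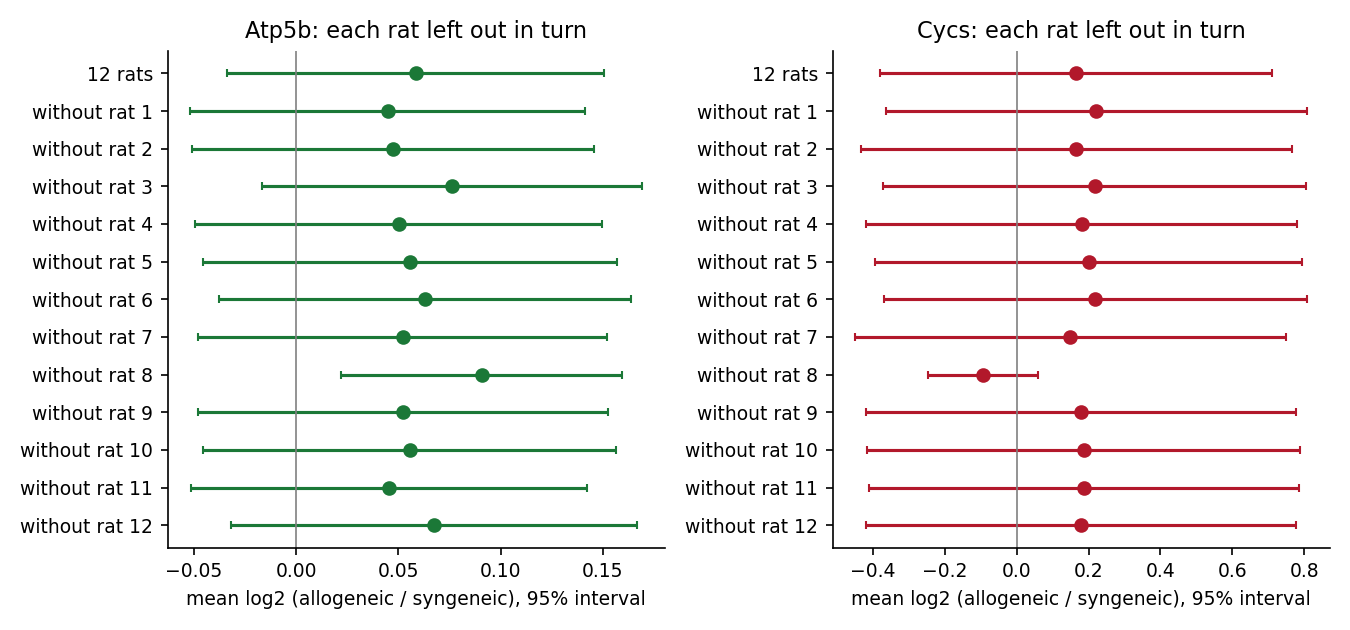
Mean log2 ratio with its 95% interval from limma (horizontal) for all 12 rats and after leaving out 1 rat at a time (rows), for *Atp5b* (left) and *Cycs* (right). Leaving out rat 8 moved *Cycs* from 0.17 to -0.09 and *Atp5b* from 0.06 to 0.09, and leaving out any other rat kept *Cycs* between 0.15 and 0.22.

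The 2 genes were also compared with each other within rats, as log2 ratios rather than levels. *Cycs* minus *Atp5b* was 0.11 ± 1.04 (SD, n = 12; p = 0.987, exact sign-flip permutation test, two-sided). Without rat 8 the difference was -0.18 ± 0.24 (SD, n = 11; p = 0.0264, same exact test). The latter was one of many settings tried and does not hold over the 12 rats. Across the 12 rats, the log2 ratios of the genes had a Pearson r of -0.65 (permutation p = 0.0717) and a Spearman rho of -0.14 (permutation p = 0.665). Without rat 8 alone, r was 0.35 (permutation p = 0.295) and rho 0.12 (permutation p = 0.736), so that the negative r rests on rat 8. Without rats 3 and 8, the 2 rats farthest from the median of *Atp5b*, r was 0.10. After adjustment over these 4 tests, the lowest p was 0.287.

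The 2 arrays of a rat differed in *Cycs* by 0.22 in the median and at most 0.58, and in *Atp5b* by 0.10 and at most 0.43. They had the same sign in 8 of 12 rats for *Cycs* and in 11 of 12 for *Atp5b*. In rat 8 the arrays gave 3.01 and 3.02 for *Cycs*, and the 2 spots lay between 2.95 and 3.10 on them. Over the 24 arrays the 2 *Cycs* spots differed by at most 0.21. For *Cycs*, the array with the sample labelled allogeneic in Cy5 gave the lower log2 ratio in 12 of 12 rats, by 0.21 ± 0.15 (SD, n = 12; p = 0.000488, the smallest that the exact sign-flip permutation test can give, and 0.000977 adjusted over the 2 genes). Of all probes, 20.8% were ordered one way in 12 of 12 rats. The mean of both orientations cancels such a shift. For *Atp5b*, the same order was seen in 7 of 12 rats (adjusted p = 0.0938, exact).

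Each slide held 4 rats. The mean log2 ratio of *Atp5b* was 0.10 ± 0.16 on slide 1, -0.02 ± 0.19 on slide 2 and 0.09 ± 0.10 on slide 3 (SD, n = 4 each). That of *Cycs* was -0.17 ± 0.31, 0.68 ± 1.59 and -0.02 ± 0.05. Slide 2 holds rat 8, and without it the remaining rats of that slide gave 0.07 ± 0.06 for *Atp5b* and -0.09 ± 0.40 for *Cycs* (SD, n = 3).

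Rat 8 stood apart over the whole array. Its log2 ratios had an SD of 0.710 over probes, against 0.210 to 0.385 in the other rats, and their correlation with the mean of the others was 0.224, against 0.534 to 0.829. At a log2 ratio of 2 or more there were 320 probes in rat 8 and 0 to 6 in each other rat, and at -2 or less there were 14 in rat 8 and 4 to 61 in the others. *Cycs* ranked 40th from the top among the 8453 probes in rat 8, and *Atp5b* was at the 14.0th percentile. With the sign turned, *Cycs* would be 40th from the bottom and *Atp5b* at the 86.0th percentile. Over the 12 rats, 0.473% of probes had a larger SD than *Cycs*, and 43.7% had a larger SD than *Atp5b*. Without rat 8 the share above *Cycs* was 10.5%, with an SD of 0.25 against a median of 0.10 over all probes. The channel of its sample labelled syngeneic was dimmer than in every other rat, with a median intensity of 135.5 in Cy3, against 154 or more, and 269.2 in Cy5, against 309.5 or more. The share of spots well above background on the arrays of rat 8 (81.6% to 87.8%) was within the range of the other rats. The part of RNA quality in the values of rat 8 was not tested.

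**Figure D4:**
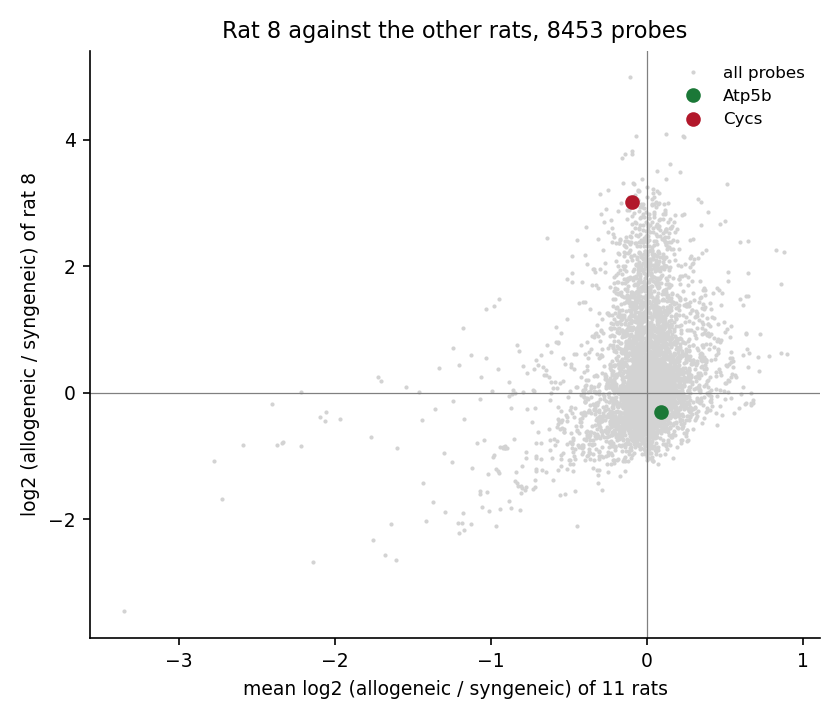
Log2 ratio in rat 8 (vertical) against the mean log2 ratio of the 11 other rats (horizontal) for 8453 probes (grey), with *Atp5b* and *Cycs* marked. *Cycs*, at 3.02 in rat 8 and -0.09 in the others, lies in the column of probes that are high in rat 8 with a mean near 0 elsewhere.

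Other mitochondrial genes on the array were taken from lists of biogenesis, assembly and import, the outer membrane with creatine kinase, and the TCA cycle. Not all of them make or maintain the respiratory chain. The 4 lists with probes on the array held 31 probes of 27 genes. Of these, 3 probes were called higher and 0 lower, beside 8.78% and 8.48% of all probes. Without rat 8, 7 were called higher and 3 lower, beside 12.5% and 12.2% of all probes, with the 3 calls retained. The counts of each list below are to be read beside the same shares. At a log2 ratio of 1 or more in rat 8 there were 7 of the 31 probes (22.6%), against 11.4% of all probes, and at -1 or less there were 0 of the 31, against 1.35% of all probes. With the sign turned, these sides would be exchanged. None of the 7 exceeded 0.41 in any other rat.

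Among regulators of mitochondrial biogenesis and mitochondrial DNA (17 probes), 1 was called higher, a probe of *Peo1*, the helicase of mitochondrial DNA, with a log2 ratio of 0.20 ± 0.15 (SD, n = 12; adjusted p = 0.00525, limma) and positive in 11 of 12 rats. The second *Peo1* probe had 0.08 (adjusted p = 0.2). Without rat 8, 3 probes of this list were called higher, among them *Tfam* with 0.07 (adjusted p = 0.0483, limma), and 2 lower. The list's median was 0.05, and -0.02 without rat 8. *Nrf1*, the factor whose core motif precedes *Cycs*, had -0.15 ± 0.35 (SD, n = 12; adjusted p = 0.305, limma) and -0.95 in rat 8. The 2 probes of *Gabpa*, the DNA-binding subunit of GABP, had 2.72 and 1.08 in rat 8 and at most 0.30 in any other rat. *Tfam*, which packages mitochondrial DNA, had 1.47 in rat 8, and *Tfb2m*, a factor of mitochondrial transcription, had 2.10. *Ppargc1a*, the coactivator PGC-1α, was well above background on at most 2 of 24 arrays in a channel.

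Among factors of assembly and import (6 probes) none was called, and 1 of the 6 was called lower without rat 8. The list's median was 0.04, and -0.04 without rat 8. The matrix chaperones *Hspd1* and *Hspa9a* had 2.39 and 2.37 in rat 8, against at most 0.41 and 0.11 in the other rats. *Hspe1*, the partner of *Hspd1*, had 1.00. *Bcs1l*, an assembly factor of complex III, had -0.06 ± 0.26 (SD, n = 12; adjusted p = 0.596, limma) and -0.11 in rat 8, and the prohibitin *Phb2* had 0.09 in rat 8, so that not every gene of the list was high there. *Hrpap20*, which RefSeq names *Ndufaf4* by its accession, is an assembly factor of complex I. Its log2 ratio was 0.04 ± 0.79 (SD, n = 12; adjusted p = 0.916, limma), with 2.42 in rat 8 and -0.69 to 0.14 in the others.

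Of the 5 probes for the outer membrane and creatine kinase, 2 were called higher and 0 lower, and 4 were called higher without rat 8. *Hk1*, a hexokinase that binds the outer membrane, had 0.18 ± 0.10 (SD, n = 12; adjusted p = 0.00112, limma) and was positive in all 12 rats. *Ckmt1*, a mitochondrial creatine kinase, had 0.31 ± 0.29 (SD, n = 12; adjusted p = 0.0158, limma). The list's median was 0.17. *Ckmt2*, another mitochondrial creatine kinase, was listed with skeletal muscle and had 0.11 ± 0.72 (SD, n = 12; adjusted p = 0.755, limma). The 3 probes of the TCA cycle, for *Idh3g* and *Aco1*, had 0.01 to 0.02 and none was called; *Aco1* encodes a largely cytosolic enzyme. No probe of the list for fatty acid oxidation was found.

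**Figure D5:**
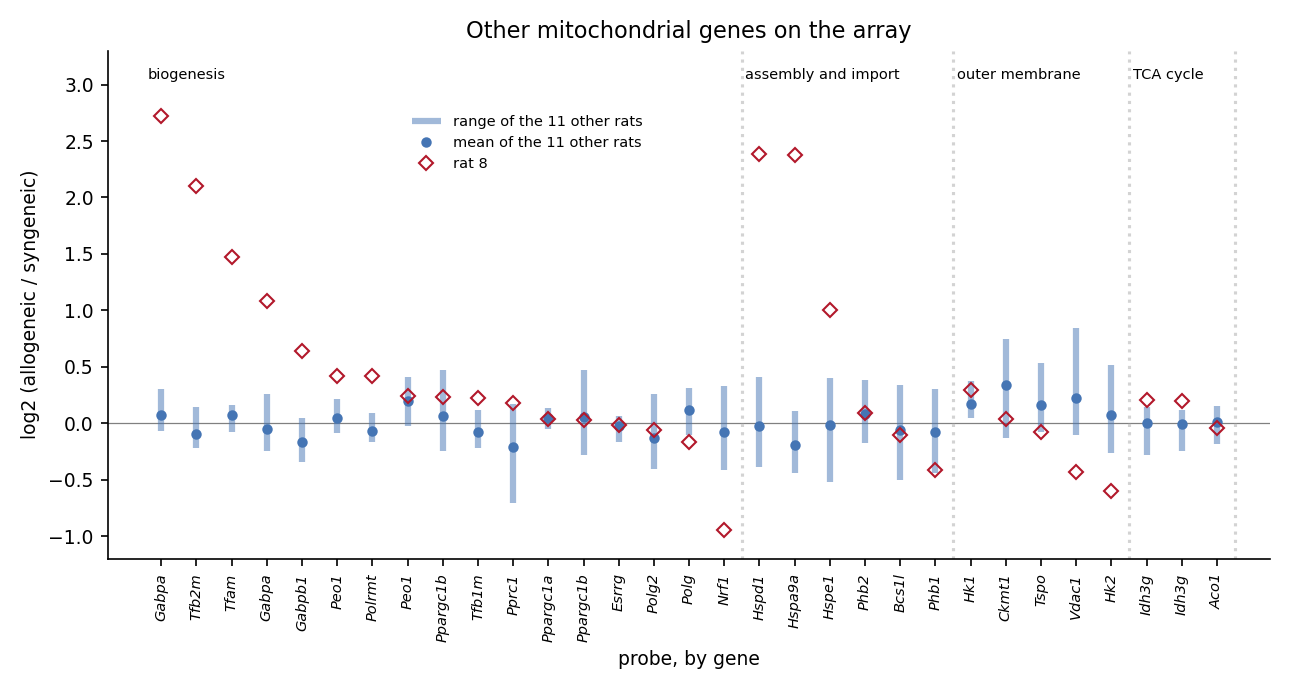
Log2 ratio of the 31 probes of the 4 mitochondrial lists (horizontal, by list), with diamonds for rat 8, bars for the range of the 11 other rats and points for their mean. *Gabpa*, *Tfb2m*, *Tfam*, *Hspd1*, *Hspa9a* and *Hspe1* lie at 1 or more in rat 8 alone, while the probes of the outer membrane and TCA cycle do not.

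Since cytochrome c also acts in cell death, a list of apoptosome and Bcl-2 family genes was added after the values of *Cycs* were seen. Of its 19 probes, 0 were called higher and 2 lower, beside 8.78% and 8.48% of all probes, with a median of -0.04. Without rat 8, 0 were called higher and 5 lower, beside 12.5% and 12.2% of all probes. *Bid*, which links death receptors to cytochrome c release, had a log2 ratio of -0.34 ± 0.13 (SD, n = 12, adjusted p = 0.000104, limma), negative in 12 of 12 rats. This sign, too, would turn with exchanged labels. A probe of *Bcl2l1*, which holds cytochrome c in mitochondria, had -0.18 (adjusted p = 0.00908), and its other probe, which was well above background on 10 and 12 of 24 arrays in the 2 samples, had 0.01. *Apaf1*, the partner of cytochrome c in the apoptosome, had 0.06 ± 0.39 (SD, n = 12; adjusted p = 0.744, limma), with 1.18 in rat 8. *Casp9* had -0.20 in rat 8.

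Markers of the cell types in the explants are given beside these values, and their part in them was not tested. Keratinocyte markers were present, with *Lgals7*, *Tp63* and *Dsc3* above background in Cy3 and Cy5 on each of the 24 arrays, and 1 of the 3 was called higher, *Lgals7* with 0.66 (adjusted p = 0.0117, limma). In rat 8 their mean log2 ratio was 1.48, against -0.14 to 0.55 in the other rats. *Tp63* had 2.44 there, against at most 0.55 in any other rat, and *Dsc3* had 1.06, against at most 0.78. *Lgals7*, at 0.93, was within the range of the other rats (-0.24 to 1.49). Of 11 macrophage probes, 0 were called higher and 6 lower, led by *Trem2* (-1.69), *Fcgr3a* (-2.19) and *Aif1* (-1.27). The mean in rat 8 (-0.80) was within the range of the others (-1.32 to -0.21). The study reports *Trem2*, *Fcgr3a* and *Aif1* as higher in allogeneic explants, opposite to the signs given here. All directions of these markers would turn with exchanged labels. Of 14 T cell probes, 6 were called lower, with *Cd8b* (-0.49), *Cd8a* (-0.32) and *Lck* (-0.70), and of 7 NK cell probes, 3 were called lower, with *Nkg7* (-0.31) and *Gzmb* (-1.06 and -0.31). Both means in rat 8 lay within the range of the other rats.

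Of 4 fibroblast probes, *Col1a2* was called higher (0.55) and *Fn1* lower (-0.36), and without rat 8, 3 were called higher and 1 lower, with *Pdgfra* (0.29) and *Thy1* (0.11) added. Of 5 white fat probes, *Adipoq* was called higher (0.56) and *Pparg* (-0.35) and *Fabp4* (-0.37) lower, and the 1 probe of brown fat, *Cidea*, had -0.09 and was not called. Of 5 skeletal muscle probes, *Actn2* was called higher (0.13, adjusted p = 0.0384, limma), and the list's mean ran from -0.42 to 1.74 in the rats other than rat 8 and was -0.54 in rat 8. Muscle is rich in mitochondria, and *Ckm*, its creatine kinase, reached 2.58 in 1 rat other than rat 8.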

How the data were processed

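RNA of 24 explants of 12 rats was measured on 24 two-color arrays (2 per rat, dyes exchanged), grouped by the dye and rat in the labels. Per the file headers, the mean spot and median background intensities were extracted with Feature Extraction 9.5.1.1 before they were deposited by the authors, without subtraction or normalization. The processed intensities in the same deposited files were background-subtracted and dye-normalized by that software. The flags for spots above background, outliers and saturation were deposited by the authors as yes or no values, another measure than an intensity. The authors also deposited a table of log2 ratios per array, whose direction and centring the table itself does not give. The sample titles set stimulated against nonstimulated explants. Its columns correlated with the allogeneic over syngeneic ratios at 0.703 to 0.957, and their medians were -0.0268 to 0.0481. The methods name an earlier software version and another amplification kit than the headers and labels do.

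In R 4.3.3 with limma 3.58.1, mean signals were corrected by normexp (offset 50), normalized by loess within arrays with control and outlier spots given no weight, turned by the dye labels and averaged over spots and over the 2 arrays of a rat. Each probe was tested by limma against 0 over 12 rats, with Benjamini-Hochberg adjustment over 8453 probes and a threshold of 0.05. The pairing is within arrays. On simulated data for this comparison (8453 probes, 200 changed), 92.5% were recovered and 2.12% of calls were false. Recovery at mean log2 ratios as small as those of the members was not tested. The number of rats limits the precision, and p-values set the mean against the spread between rats.

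Members and lists were chosen with earlier results of these data known. Names were updated through RefSeq (GRCr8), which matched 4405 probes by accession. By rule, the members and up to 3 called genes of each list in each direction, by smallest adjusted p, are named. Other genes were named after their values were seen. The lists were skeletal muscle, brown and white fat, macrophages, T cells, NK cells, keratinocytes, fibroblasts, TCA cycle, fatty acid oxidation, biogenesis, assembly and import, outer membrane and creatine kinase and, added later, the apoptosome, from which 1 gene was left out. A comparison of tissue-specific and widespread isoforms was planned, but 0 of 8 pairs had both genes on the array. Alternatives concerned the signals, offset, centring, orientation, dim probes, outlier spots, slide, test, series table, probe averaging and each rat left out.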

Additional observations from a re-analysis of the deposited data

How the results depend on the processing

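Neither member was called under any setting tried, with 0 of 2 in each. Over the 13 alternatives that keep all rats, the mean log2 ratio of *Cycs* was 0.06 to 0.27 (adjusted p = 0.435 to 0.878) and that of *Atp5b* was -0.02 to 0.10 (adjusted p = 0.153 to 0.887). *Atp5b* reversed to -0.022 with median centring, and the cause was not tested. With each rat left out, *Atp5b* was 0.045 to 0.091, *Cycs* was -0.093 to 0.222, *Cycs* minus *Atp5b* was -0.184 to 0.177, the members' median was -0.001 to 0.147 and the calls over all probes, 1459 with 12 rats, were 1155 to 2087. The lowest *Cycs*, difference and median and the highest *Atp5b* and count came without rat 8. Treating the 2 arrays of a rat as a random block (the replicate block, with all 24 arrays) gave adjusted p = 0.31 for *Atp5b* and 0.602 for *Cycs* with 1636 calls, and changed no call of the members. With allogeneic in Cy5 only and in Cy3 only, calls were 2659 and 2500. Chosen after seeing the data, leaving out slide 1, 2 or 3 gave 738, 1357 and 657 calls, and without slide 2 *Cycs* was -0.094 and the difference -0.191. Within slides 1, 2 and 3, with 4 rats each, calls were 195, 7 and 281. *Cycs* was -0.168 within slide 1 and -0.0189 within slide 3, with differences of -0.268 and -0.113, and *Atp5b* was -0.0188 within slide 2. Leaving out the bright array of rat 10 changed no direction of the members. The planned comparison of isoforms could not be made, since no pair had both genes on the array. The planned relation to muscle markers was not run for *Cycs*, the only gene of these pairs on the array. Signals of both members were well above background throughout, and the spread between rats limits their precision.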

Other observations

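The genes whose log2 ratios ran most like those of the members over the rats were looked up after the values were seen, as a description over samples that share arrays and dyes. Over the 11 rats other than rat 8, *Cycs* ran most like *Ctnnbl1* (Pearson r = 0.982), *Nol1* (0.977) and *Bcs1l* (0.958), the last of which is the assembly factor of complex III described above. With rat 8 included, the leading genes were *Secisbp2* (0.997), *Dnajc2* (0.996) and *Skp1a* (0.995), and rat 8 sets these values. *Atp5b* ran most like a probe with no gene name (0.961), *Tsc2* (0.936) and *Thrap5* (0.929) over the 12 rats, and like the unnamed probe (0.919), *Tsc2* (0.870) and *Aptx* (0.870) without rat 8.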
